A study of Mus musculus with 2 samples.

Results

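The heat shock chaperones described here are 10 genes, Hspa1a, Hspa1b, Hspa8, Hsph1, Dnajb1, Dnaja1, Hsp90aa1, Hsp90ab1, Hspb1 and Bag3, taken by symbol from the 32285 features of the deposited matrices. They were picked because earlier results on these cells showed Hspa1a and Hspa1b to be higher in smooth muscle, so the ratios in smooth muscle are given as a description. Cells of dissociated whole mouse aorta were profiled in droplets, with transcripts tallied as unique molecular identifiers (UMIs), so that copies of one molecule are counted once. The Cept1 library came from Cept1fl/fl Cre+ mice, in which a Cre-ERT2 recombinase under the VE-cadherin promoter, active in endothelium, was induced with tamoxifen. The labels call this overexpression of Cept1, an enzyme of phospholipid synthesis. The sources used here do not give the construct of the floxed allele, so its transcript could not be told apart in the counts. The control library came from Cept1fl/fl Cre- littermates with the same floxed genotype. All mice were male and of the C57BL6 background. The protocol, which is given with both libraries, has male littermates receive 1 mg of tamoxifen on each of 5 days and recover for 5 days. It does not say in so many words that the Cre- mice were injected too. The protocol gives an age of at least 8 weeks at tamoxifen and the age label 6 to 8 weeks. The protocol names 3 mice per condition. Each condition has 1 library. The sources used here do not give whether the mice were pooled or which gate the sort used. Differences between the libraries therefore have no replicate check, no test between conditions was possible, and the 95% intervals below cover counting error only.

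Heat shock proteins bind unfolded or partly folded proteins, keep them from aggregating and help them to refold. Hsp70 proteins do this in cycles of ATP binding and hydrolysis that J domain proteins start and nucleotide exchange factors reset, while Hsp90 acts on proteins such as kinases and steroid receptors at a later step. When unfolded proteins accumulate, the transcription factor HSF1 forms trimers, binds repeats of a short motif called the heat shock element and raises transcription of the inducible members. In the arterial wall these chaperones are known from responses to heat, stretch and injury, and they are also induced when tissue is digested with enzymes to release single cells.

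The inducible Hsp70 genes Hspa1a and Hspa1b lie side by side on the minus strand of chromosome 17, at 34969190 to 34972156 and 34956436 to 34959238 (GRCm38, GENCODE vM21). The others are scattered: Hsph1 at 149614287 to 149636376 (minus strand) and Hspb1 at 135887919 to 135889563 (plus strand) of chromosome 5, Dnajb1 at 83608193 to 83612653 of chromosome 8 (plus), Dnaja1 at 40722150 to 40737149 of chromosome 4 (plus), Hspa8 at 40800984 to 40810087 of chromosome 9 (plus), Bag3 at 128523616 to 128546981 of chromosome 7 (plus), Hsp90aa1 at 110690605 to 110702728 of chromosome 12 (minus) and Hsp90ab1 at 45567775 to 45573271 of chromosome 17 (minus). Dnaja1 overlaps Smu1 and Gm6297 on the opposite strand, and Bag3 overlaps 2610306O10Rik on its own strand, so their counts may hold reads of these neighbours. RefSeq windows before the transcription start were available for 7 of the 10 genes, Hspa1a, Hspa1b, Hsph1, Dnajb1, Dnaja1, Hspb1 and Bag3. Hspa8, Hsp90aa1 and Hsp90ab1 are named only. The 250 bases before the start are shown for Hspa1a (chr17:34972157-34972406, minus strand) and Hspa1b (chr17:34959239-34959488, minus strand), since the largest ratios belonged to them. They are also shown for Dnajb1 (chr8:83607925-83608174, plus strand), the other gene past 2-fold in smooth muscle, and for Hspb1 (chr5:135887669-135887918, plus strand), which held more matches than any other window of these 7 genes. All are from RefSeq on GRCm38.p6, written 5′ to 3′ on the strand of the gene. Capitals mark a pair of inverted heat shock element units, GAANNTTC or TTCNNGAA, each of which is its own reverse complement and so covers both strands.
Hspa1a: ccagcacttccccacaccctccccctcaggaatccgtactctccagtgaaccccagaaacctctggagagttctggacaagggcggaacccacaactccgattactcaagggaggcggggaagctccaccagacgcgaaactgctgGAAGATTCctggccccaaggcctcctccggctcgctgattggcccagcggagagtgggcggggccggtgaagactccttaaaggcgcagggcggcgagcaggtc
Hspa1b: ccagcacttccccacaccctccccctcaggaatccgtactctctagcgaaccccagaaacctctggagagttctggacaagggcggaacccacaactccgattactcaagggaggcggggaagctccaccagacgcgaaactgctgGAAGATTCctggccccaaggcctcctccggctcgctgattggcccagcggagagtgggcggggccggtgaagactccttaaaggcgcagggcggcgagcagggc
Dnajb1: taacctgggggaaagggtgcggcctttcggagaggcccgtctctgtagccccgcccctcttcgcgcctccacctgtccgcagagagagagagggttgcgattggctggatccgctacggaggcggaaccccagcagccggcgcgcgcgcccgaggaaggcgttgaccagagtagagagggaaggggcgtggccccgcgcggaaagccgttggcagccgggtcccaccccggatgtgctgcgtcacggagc
Hspb1: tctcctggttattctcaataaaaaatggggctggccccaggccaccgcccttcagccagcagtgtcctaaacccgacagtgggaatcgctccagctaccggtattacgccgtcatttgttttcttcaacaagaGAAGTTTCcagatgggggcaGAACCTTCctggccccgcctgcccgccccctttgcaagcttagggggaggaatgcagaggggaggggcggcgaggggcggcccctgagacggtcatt
The windows of Hspa1a and Hspa1b were identical at 247 of 250 bases. Each held GAAGATTC with its first base 104 bases before the start. Hspb1 held a match 117 and another 97 bases before the start, Dnaja1 held one 124 bases before the first of its 3 starts, and Hsph1 held one 54 or 33 bases before its start, depending on which of its RefSeq starts is taken. Dnajb1 and Bag3 had no match, which says only that these letters are not in this window. Over all 32851 windows of this length, GAANNTTC was found in 6.69%, TTCNNGAA in 7.17% and either in 12.84%. Either was found for 5 of the 7 chaperone genes with a window, in 6 of their 11 windows. A match is a description of letters and no record of HSF1 binding.

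The sequenced barcodes numbered 17728 in the Cept1 library, with 95735360 UMIs in all, and 14349 in the control library, with 88220524 UMIs. A filter of 500 or more genes and 10% or less mitochondrial UMIs kept 11168 cells of the Cept1 library and 8729 of the control library, with medians of 6438.5 and 6735 UMIs. The libraries shared 74 barcodes, 31 among the kept cells. Cells were assigned by marker UMIs to 7 classes with at least 50 cells in each library, and 19.8% of kept cells of the Cept1 library and 24.5% of those of the control library were left without a class. Levels are CPM, the UMIs of a gene scaled to a fixed total of UMIs per class and library, and ratios divide the level in the Cept1 library by that in the control library. Cept1 itself, the check of the labels, stood at 134.6 CPM in the Cept1 library's endothelial-like cells, against 81.42 CPM in the control library's (log2 ratio 0.73, interval 0.54 to 0.91), and its ratio was 0.34 (0.07 to 0.61) in smooth muscle-like cells. Smooth muscle-like cells numbered 486 in the Cept1 library, against 395 in the control library. Their 8 smooth muscle markers summed to 34110 and 38840 CPM, against 681.8 and 381.8 CPM in endothelial-like cells of the same libraries.

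Smooth muscle-like cells held the highest level of 6 of the 10 chaperone genes in both libraries, namely Hspa1a, Hspa1b, Hsph1, Hsp90aa1, Hsp90ab1 and Hspb1, and in each case above the next class beyond counting error. Macrophage-like cells were highest for Dnajb1 in both libraries. They were also highest for Hspa8, clear of smooth muscle-like cells in the Cept1 library (1560 against 1493 CPM) and within counting error of them in the control library (1447 against 1413 CPM). T or NK-like cells were highest for Dnaja1, at 369.4 CPM in the Cept1 library, where the intervals overlapped with those of smooth muscle-like cells, and at 349.9 CPM in the control library. The only gene with a different highest class in the libraries was Bag3: smooth muscle-like and fibroblast-like cells overlapped at 113.4 and 103.4 CPM in the Cept1 library, while fibroblast-like cells stood above at 105.4 against 83.26 CPM in the control library.

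**Figure D1:**
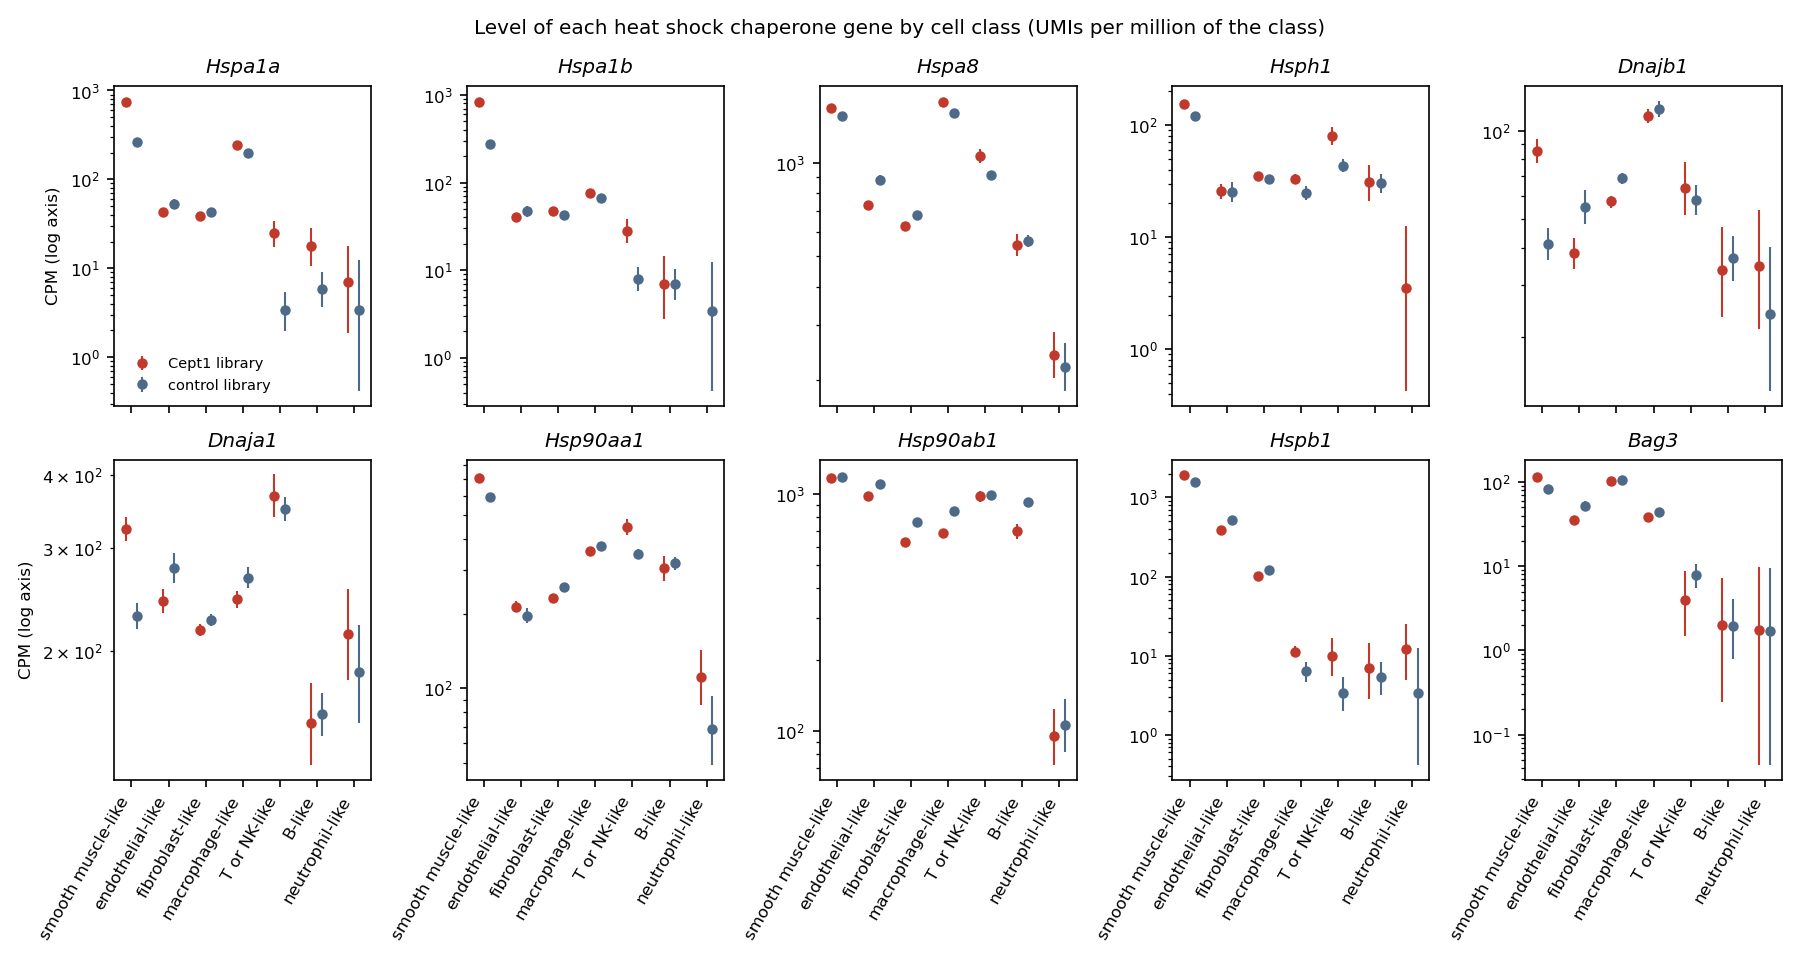
Level of each of the 10 chaperone genes in 7 cell classes, in CPM of the class on a log axis, with the Cept1 library in red left of the control library in blue and 95% counting intervals as bars. A class with 0 UMIs has no point (in neutrophil-like cells, Hspa1b lacks the Cept1 library and Hsph1 the control library). Hspa1a and Hspa1b stand clear of every other class in smooth muscle-like cells, at 747.1 and 839.2 CPM in the Cept1 library and 264.8 and 273.0 CPM in the control library.

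The inducible Hsp70 genes had the largest ratios of the 10 in smooth muscle-like cells. Hspa1a was counted at 4005 UMIs, or 747.1 CPM, in the Cept1 library and at 1698 UMIs, or 264.8 CPM, in the control library, a log2 ratio of 1.50 (1.41 to 1.58) and a fold of 2.82. Hspa1b was counted at 4499 UMIs, or 839.2 CPM, in the Cept1 library and at 1751 UMIs, or 273.0 CPM, in the control library, a log2 ratio of 1.62 (1.54 to 1.70) and a fold of 3.07. Together they stood at 1586 CPM in the Cept1 library and 537.8 CPM in the control library, 2.95-fold apart. Among the 12121 genes with at least 20 UMIs in this class, Hspa1b ranked 127 and Hspa1a 141 from the highest ratio. Both were in the upper tail of the class, and neither was at its end.

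Dnajb1, the J domain partner that stimulates inducible Hsp70, was the third gene past 2-fold. It had 456 UMIs, or 85.06 CPM, in the Cept1 library and 265 UMIs, or 41.32 CPM, in the control library (log2 ratio 1.04, 0.82 to 1.27). It lay just inside the 2-fold line, and its interval crossed it. Under 2 of 11 alternative settings it fell short of the line, at 0.92 with cells of 5000 to 15000 UMIs only and at 0.88 with every cell weighted equally. Dnaja1, a J domain protein that works with constitutive Hsp70, stood at 324.2 CPM in the Cept1 library and 229.7 CPM in the control library, a ratio of 0.50 (0.40 to 0.60). Hspa8, the constitutive Hsp70 of the cytosol, was nearly level, at 1493 CPM in the Cept1 library and 1413 CPM in the control library (0.08, 0.04 to 0.12). Hsph1, the Hsp110 that exchanges nucleotide on Hsp70, was at 154.1 CPM in the Cept1 library and 119.6 CPM in the control library (0.37, 0.22 to 0.51). With each cell thinned to 2000 UMIs its ratio was 0.04, and with every cell weighted equally it was 0.32.

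The Hsp90 genes differed less. Hsp90aa1, the inducible cytosolic form, was at 706.6 CPM in the Cept1 library and 589.5 CPM in the control library (0.26, 0.20 to 0.33). Hsp90ab1, the constitutive form, was at 1170 CPM in the Cept1 library and 1181 CPM in the control library (-0.01, -0.06 to 0.04), and was the only one of the 10 whose interval included no difference. The small heat shock gene Hspb1, whose protein holds unfolded proteins without ATP and is known to act on actin filaments, was at 1909 CPM in the Cept1 library and 1576 CPM in the control library (0.28, 0.24 to 0.32). Bag3, which links Hsp70 and small heat shock proteins to autophagy and is known for turnover of filamin in muscle under tension, was at 113.4 CPM in the Cept1 library and 83.26 CPM in the control library (0.45, 0.28 to 0.62). In all, 9 of the 10 genes were higher in the Cept1 library and 3 of them at least 2-fold. None was at least 2-fold lower. Of all 12121 genes with at least 20 UMIs in the class, 2.67% were at least 2-fold higher and 1.51% at least 2-fold lower. The median ratio was 0.41 over the 10 and -0.01 over all genes, and since these genes were picked for this contrast nothing is read from either difference.

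**Figure D2:**
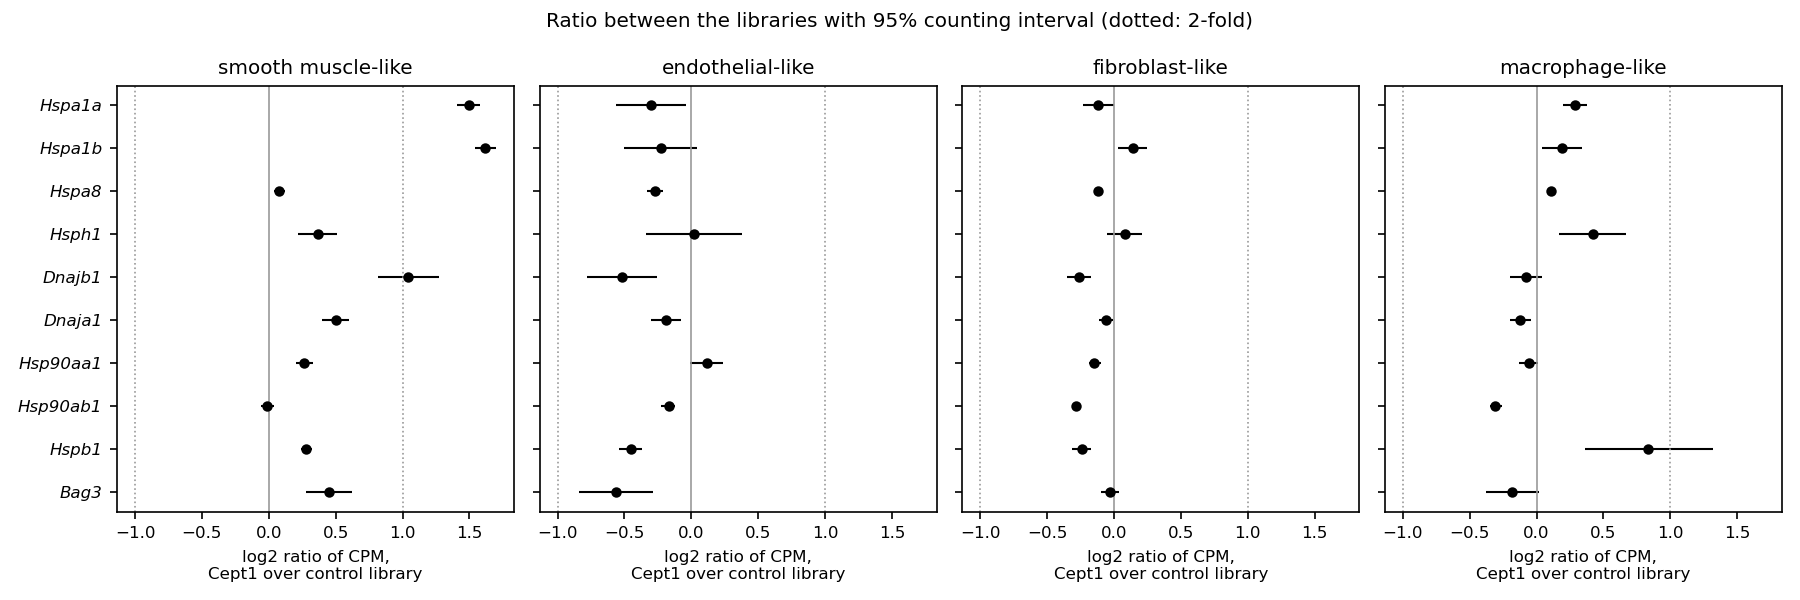
Log2 ratio of CPM (Cept1 library over control library) for the 10 chaperone genes in the 4 largest classes, with 95% counting intervals as bars, a solid line at no difference and dotted lines at 2-fold. In smooth muscle-like cells Hspa1a, Hspa1b and Dnajb1 lie past the upper dotted line at 1.50, 1.62 and 1.04, while in the other 3 classes no gene reaches either line.

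Several other measures moved with this difference. Smooth muscle-like cells were shallower in the Cept1 library, with a median of 10596 UMIs against 15268 in the control library, and had a median of 5.85% mitochondrial UMIs against 5.64%. Among cells of 5000 to 15000 UMIs, 389 in the Cept1 library, against 146 in the control library, the ratio of Hspa1a was 1.28 and it remained past 2-fold. Macrophage markers summed to 59.69 CPM in smooth muscle-like cells of the Cept1 library and 26.2 CPM in those of the control library, with 8 of 8 markers higher and none at 0. Platelet markers summed to 45.7 CPM in the Cept1 library and 17.78 CPM in the control library, with 5 of 5 higher. Erythroid markers summed to 121.4 CPM in the Cept1 library and 73.75 CPM in the control library, also with 5 of 5 higher, and no marker of either list was at 0. Their part in the difference was not tested.

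The difference in smooth muscle was spread over much of the class and was not carried by a few cells. The summed level of Hspa1a and Hspa1b per cell had a median of 683.2 CPM in the Cept1 library and 206.6 CPM in the control library, a lower quartile of 146.1 against 73.45 CPM and an upper quartile of 2213 against 523.4 CPM. The lower quartiles stand for few UMIs per cell at unlike depths, and nothing is read from their gap. The cell with the most UMIs of the pair held 294 of them in the Cept1 library, against 176 in the control library, or 3.46% and 5.1% of the class total. The richest 49 of 486 cells held 46.4% of the pair's UMIs in the Cept1 library, and the richest 40 of 395 held 54.7% in the control library. Levels therefore varied widely within the class in both libraries. After each cell was thinned to 2000 UMIs, 63.77% of 472 cells in the Cept1 library, against 41.38% of 377 in the control library had a UMI of the pair. Without thinning these shares were 86.01% and 83.54%, in cells whose depth differed as given above. In B-like cells, which hold little of either transcript, the thinned shares were 0.526% in the Cept1 library, against 1.84% in the control library, at median depths of 4457 and 5449.5 UMIs. The order was the other way in T or NK-like cells (4.81% against 2.06%) and neutrophil-like cells (1.69% against 1.30%), which also hold little. Thinned cells of the Cept1 library numbered 190 B-like, 208 T or NK-like and 118 neutrophil-like, so these shares rest on few cells. Dnajb1 was seen in 14.83% of thinned smooth muscle-like cells of the Cept1 library and 6.37% of those of the control library. Hsph1 was seen in 21.4% and 23.34%, which runs against its CPM, and no direction is read from that share.

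**Figure D3:**
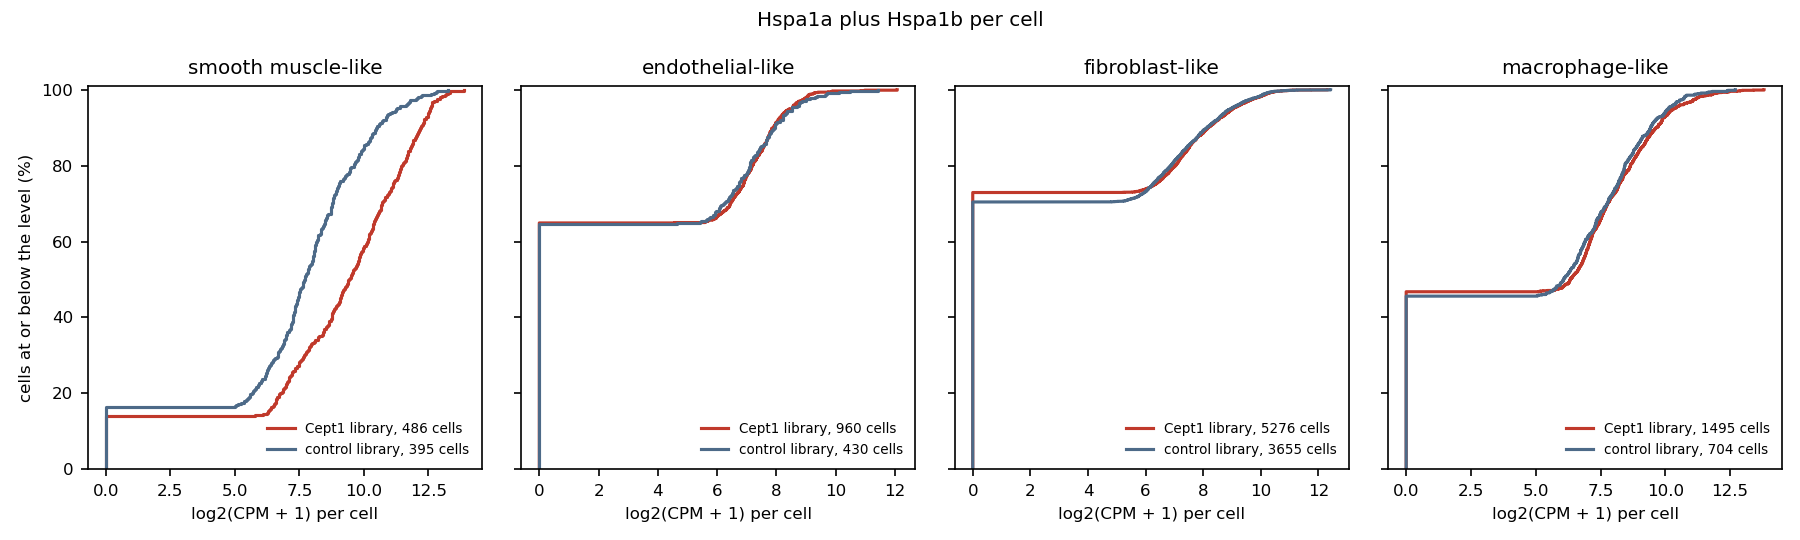
Share of cells at or below each level of Hspa1a plus Hspa1b, on a log2(CPM + 1) axis, for the Cept1 library in red and the control library in blue in 4 classes. The curves are apart over most of the range in smooth muscle-like cells, with medians of 683.2 and 206.6 CPM in the Cept1 and control libraries, and run close together in the other 3 classes.

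Within smooth muscle-like cells the other 8 chaperone genes were higher in those thinned cells that had a UMI of the pair, in both libraries. In the Cept1 library 301 cells had one and 171 did not. Hspb1 stood at 2565 CPM in the cells with a UMI of the pair and at 830.4 CPM in those without, Hspa8 at 1905 and 1012 CPM, Bag3 at 157.8 and 52.63 CPM, Hsph1 at 184.4 and 67.25 CPM, and Dnajb1 at 111.3 and 38.01 CPM. The gap was smaller for Hsp90ab1, at 1309 and 988.3 CPM. In the control library 156 cells had a UMI of the pair and 221 did not. There Hspb1 stood at 1821 and 1357 CPM, Hspa8 at 1804 and 1136 CPM, Bag3 at 83.33 and 74.66 CPM, Hsph1 at 189.1 and 101.8 CPM, and Dnajb1 at 35.26 and 31.67 CPM. For Dnajb1 and Bag3 the control values rest on few UMIs, 11 and 14 for Dnajb1 and 26 and 33 for Bag3. The immediate early list of 24 genes, which is known to respond quickly to many stimuli, summed to 6143 CPM with and 3643 CPM without a UMI of the pair in the Cept1 library. In the control library it summed to 4503 CPM with and 4880 CPM without. The 8 chaperone genes were also higher with a UMI of the pair in endothelial-like, fibroblast-like and macrophage-like cells. Exceptions were Hsph1 (control library, endothelial-like and macrophage-like) and Bag3 (Cept1 library, macrophage-like). Some gaps were slight, as in fibroblast-like cells of the Cept1 library for Dnajb1 (60.63 against 59.91 CPM) and Hsp90ab1 (603.7 against 597.8 CPM). Others rest on few UMIs, as for Hspb1 in control macrophage-like cells (3 and 7). The immediate early list was higher with a UMI of the pair in both libraries of endothelial-like, fibroblast-like and macrophage-like cells. Its control sums were 10600 against 7563, 17500 against 13390 and 39510 against 29770 CPM in that order. The cells of each comparison share a library, and the libraries were not compared by a test in this respect.

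Hspa1a and Hspa1b encode nearly the same protein, and their transcripts of 2967 and 2803 bases share 58.8% and 62.3% of their 50-base stretches. None of the stretches in the last 500 bases of either was found in the other, and the assay counts reads near the 3′ end. In smooth muscle-like cells Hspa1a made up 47.1% (46.0 to 48.2) of the pair's UMIs in the Cept1 library and 49.2% (47.5 to 50.9) in the control library. In endothelial-like cells it made up 51.5% in the Cept1 library, against 52.7% in the control library, and in fibroblast-like cells 45.1% against 49.6%. In macrophage-like cells the share was 76.1% (74.8 to 77.4) in the Cept1 library and 74.8% (72.9 to 76.7) in the control library. The ratio of Hspa1a to Hspa1b UMIs was thus 3.18 in macrophage-like cells and 0.89 in smooth muscle-like cells of the Cept1 library, and 2.97 and 0.97 in those of the control library. The difference between these classes was seen in both libraries and was wider than the counting intervals. Hspa1a overlaps Gm20481, annotated on the opposite strand, and the sources used here do not give whether counting used strand, so reads of Gm20481 cannot be told apart from those of Hspa1a by the counts.

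**Figure D4:**
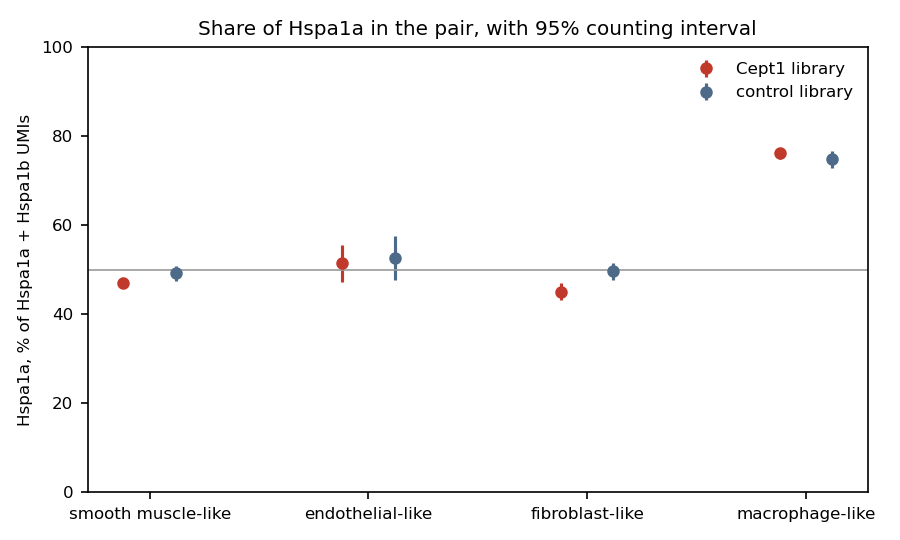
Hspa1a as a percentage of the summed UMIs of Hspa1a and Hspa1b in 4 classes, with the Cept1 library in red left of the control library in blue, 95% counting intervals as bars and a line at equal counts. Macrophage-like cells stand at 76.1% and 74.8%, away from the other 3 classes, in both libraries.

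In endothelial-like cells, where the VE-cadherin promoter of the Cre is active, the chaperone genes were level or lower in the Cept1 library. The class held 960 cells in the Cept1 library, against 430 in the control library, with medians of 6218 and 7778.5 UMIs. Hspa1a was at 42.73 CPM in the Cept1 library and 52.73 CPM in the control library (-0.30, -0.56 to -0.04), and Hspa1b at 40.30 against 47.33 CPM (-0.23, -0.50 to 0.04). Neither direction held throughout: under 1 of the 11 alternative settings each, the ratios of Hspa1a and Hspa1b were 0.02 and 0.01. Bag3 was at 35.15 CPM in the Cept1 library and 51.99 CPM in the control library (-0.56, -0.84 to -0.29), Dnajb1 at 38.44 and 55.18 CPM (-0.52, -0.78 to -0.26), and Hspb1 at 382.5 and 523.6 CPM (-0.45, -0.54 to -0.37). These were the lowest ratios of the 10 in this class. They kept their sign in all 11 alternatives, of which those that change only the minimum count cannot move a ratio. Hspa8 was at 732.9 CPM in the Cept1 library and 881.9 CPM in the control library (-0.27), Dnaja1 at 243.8 and 277.9 CPM (-0.19), and Hsp90ab1 at 977.3 and 1100 CPM (-0.17). Only Hsp90aa1 (0.12, -0.01 to 0.24) and Hsph1 (0.02, -0.34 to 0.38) had ratios above 0, and both intervals included 0. No member was past 2-fold either way, where 2.28% of the 12435 genes with at least 20 UMIs were at least 2-fold higher and 2.36% lower. The median over the 10 was -0.25. Smooth muscle markers in this class summed to 681.8 CPM in the Cept1 library and 381.8 CPM in the control library.

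In fibroblast-like cells, 5276 in the Cept1 library, against 3655 in the control library, no chaperone gene was past 2-fold, where 1.56% of 15869 genes were at least 2-fold higher and 2.27% lower. Ratios ran between -0.28 and 0.14. Hspa1a was at 39.19 CPM in the Cept1 library and 42.53 CPM in the control library, and Hspa1b at 47.62 and 43.16 CPM, so that the pair was level. Hsp90ab1 had the lowest ratio, at 629.2 CPM in the Cept1 library and 762.5 CPM in the control library (-0.28, -0.31 to -0.25). Bag3, which was highest or close to highest in this class, was at 103.4 CPM in the Cept1 library and 105.4 CPM in the control library.

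In macrophage-like cells, 1495 in the Cept1 library, against 704 in the control library, 5 of the 10 genes had ratios above 0 and 5 below, and none was past 2-fold, where 3.17% of 13071 genes were at least 2-fold higher and 1.99% lower. Hspa1a was at 243.3 CPM in the Cept1 library and 199.1 CPM in the control library (0.29, 0.20 to 0.38). Hspa1b was at 76.42 CPM in the Cept1 library and 67.03 CPM in the control library (0.19). Hspb1 had the largest ratio, 0.83 (0.36 to 1.32), at 11.23 CPM in the Cept1 library and 6.32 CPM in the control library, on 148 and 50 UMIs. Hspb1 is most abundant in smooth muscle, and the 8 smooth muscle markers summed to 144.0 CPM in macrophage-like cells of the Cept1 library and 75.26 CPM in those of the control library, with 8 of 8 higher and none at 0. Their part in this ratio was not tested. Hsp90ab1 was lower, at 686.0 CPM in the Cept1 library and 848.0 CPM in the control library (-0.31, -0.35 to -0.26). Hsp90ab1 was thus below 0 in endothelial-like, fibroblast-like and macrophage-like cells in all 11 alternatives, and level in smooth muscle-like cells. Among the alternatives, a changed minimum count could not move these ratios.

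The lymphocyte classes were small in UMIs of the pair. T or NK-like cells numbered 210 in the Cept1 library, against 587 in the control library. Hspa1a had 37 UMIs, or 24.71 CPM, in the Cept1 library and 17 UMIs, or 3.40 CPM, in the control library (2.86, 2.00 to 3.78), which ranked 5 of 10810 genes. Hspa1b had 42 UMIs, or 28.05 CPM, in the Cept1 library and 40 UMIs, or 7.99 CPM, in the control library (1.81, 1.15 to 2.47). A single cell held 32 of the 79 UMIs of the pair in the Cept1 library. Without the richest cell of each library the pair stood at 31.48 CPM in the Cept1 library and 10.42 CPM in the control library, against 52.77 and 11.38 CPM with them. Hspb1 was also past 2-fold (1.56, 0.46 to 2.65) on 15 UMIs in the Cept1 library, against 17 in the control library. These 3 of 10 genes stood against 5.61% of all genes that were at least 2-fold higher in this class, while 2.94% were lower. Just outside the line were Hsph1, at 79.48 CPM in the Cept1 library and 43.34 CPM in the control library (0.87, 0.54 to 1.20), and Bag3 (-0.96, -2.49 to 0.29) on 6 and 39 UMIs. Smooth muscle markers summed to 144.9 CPM in T or NK-like cells of the Cept1 library and 76.5 CPM in those of the control library, with 7 of 8 higher and only Des at 0, in the control library. Their part in these ratios was not tested.

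In B-like cells 9 of the 10 genes had at least 20 UMIs, and Hspa1a alone was past 2-fold, where 3.22% of 9931 genes were at least 2-fold higher and 6.97% lower. It had 18 UMIs in the Cept1 library, against 21 in the control library, or 17.91 and 5.91 CPM (1.60, 0.61 to 2.58). A single cell held 18 of the 25 UMIs of the pair in the Cept1 library, against another 18 of 46 in the control library. Without these cells the pair was at 7.02 CPM in the Cept1 library and 7.89 CPM in the control library. Hspa1a alone was then at 4.01 CPM in the Cept1 library and 2.82 CPM in the control library. Much of the ratio of Hspa1a in this class thus rested on single cells. Smooth muscle markers summed to 181.1 CPM in B-like cells of the Cept1 library and 90.01 CPM in those of the control library. Hsp90ab1, well counted, was at 696.5 CPM in the Cept1 library and 922.4 CPM in the control library (-0.41, -0.53 to -0.29). In neutrophil-like cells, 120 in the Cept1 library, against 79 in the control library, 5 genes had at least 20 UMIs and none was past 2-fold, where 9.3% of 4517 genes were at least 2-fold higher and 9.96% lower. Hspa1b had 0 UMIs in the Cept1 library, against 2 in the control library, and Hsph1 2 and 0. A count of 0 allows up to 3, so neither pair of counts can be told apart.

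In the wider network of smooth muscle-like cells, Egr2 of the immediate early list, given below, was past 2-fold. No other listed gene outside the 10 with at least 20 UMIs was past 2-fold either way. This is to be read against the 2.67% of all genes in this class that were at least 2-fold higher and the 1.51% that were lower. Among other Hsp70, Hsp110 and J domain genes, 12 of 14 had at least 20 UMIs, of which 9 had ratios above 0 and none was past 2-fold, with a median of 0.09. Dnajb4, a J domain gene of the same subfamily as Dnajb1, was the nearest of these to the upper 2-fold line, at 621.1 CPM in the Cept1 library and 321.7 CPM in the control library (0.95, 0.87 to 1.03). Its ratio was also above 0 in endothelial-like (0.80, 0.55 to 1.05), T or NK-like (0.80, 0.35 to 1.24) and fibroblast-like cells (0.18, 0.10 to 0.27). Hspa4 (-0.12), Dnajb6 (0.12) and Dnaja2 (-0.20) were close to level. Of 17 cochaperones of Hsp70 and Hsp90, 8 were above and 9 below 0 with none past 2-fold, among them Ptges3 (0.13), St13 (0.06), Bag1 (-0.21) and Cdc37 (-0.27). Small heat shock genes other than Hspb1 had a median of -0.03 over 6, with Hspb7 at -0.06, Cryab at 0.03, Hspb6 at -0.06 and Hspb2 at -0.15. Hsf1, which encodes the factor itself, was level at 24.81 CPM in the Cept1 library and 24.17 CPM in the control library (0.04), and Hsf2 had an interval that included 0 (0.33, -0.13 to 0.79).

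The lists of endoplasmic reticulum, mitochondrial and chaperonin genes had medians below 0 in the same cells. Of the 12 endoplasmic reticulum genes, 10 had ratios below 0, with a median of -0.24 and a summed level of 1918 CPM in the Cept1 library and 2273 CPM in the control library. Among them Calr stood at -0.45, Serpinh1, the collagen chaperone, at -0.28, Hsp90b1 at -0.25 and Hspa5, the Hsp70 of this compartment, at -0.24. Dnajb9, a J domain partner of Hspa5 named here after its value was seen, had the highest ratio of the list, at 43.09 CPM in the Cept1 library and 30.72 CPM in the control library (0.49, 0.21 to 0.77). The median of this list was also below 0 in fibroblast-like (-0.28), B-like (-0.25), macrophage-like (-0.08) and neutrophil-like cells (-0.62). It was above 0 in endothelial-like (0.04) and T or NK-like cells (0.1). The 5 mitochondrial genes had a median of -0.03, with Hspe1 at 0.03 and Hspd1 at -0.16. Of the 8 chaperonin subunits, which fold actin and tubulin, 7 were below 0, with a median of -0.08. The list of proteotoxic and oxidative stress genes had 6 of 9 above 0 and a median of 0.13. Its highest ratio was that of Atf3, a stress-induced transcription factor, at 297.1 CPM in the Cept1 library and 180.7 CPM in the control library (0.72, 0.61 to 0.83), while the ubiquitin gene Ubb stood at -0.14. Atf3 is also counted in the immediate early list. The immediate early list had 13 of 24 above 0, a median of 0.02 and a summed level of 5061 CPM in the Cept1 library and 4769 CPM in the control library. The 4 with the most UMIs were Jund (0.09), Fos (-0.06), Egr1 (-0.14) and Klf6 (0.66, 0.58 to 0.75). Single genes lay well to either side of 0, such as Ier3 at 0.68 and Dusp1 at 0.53 against Socs3 at -0.68, Junb at -0.51 and Btg2 at -0.51, all chosen after their values were seen. Egr2 alone was past 2-fold, where 2.67% of all genes were at least 2-fold higher and 1.51% lower, on 35 UMIs in the Cept1 library, against 16 in the control library (1.39, 0.50 to 2.34). The median over all 12121 genes in this class was -0.01.

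**Figure D5:**
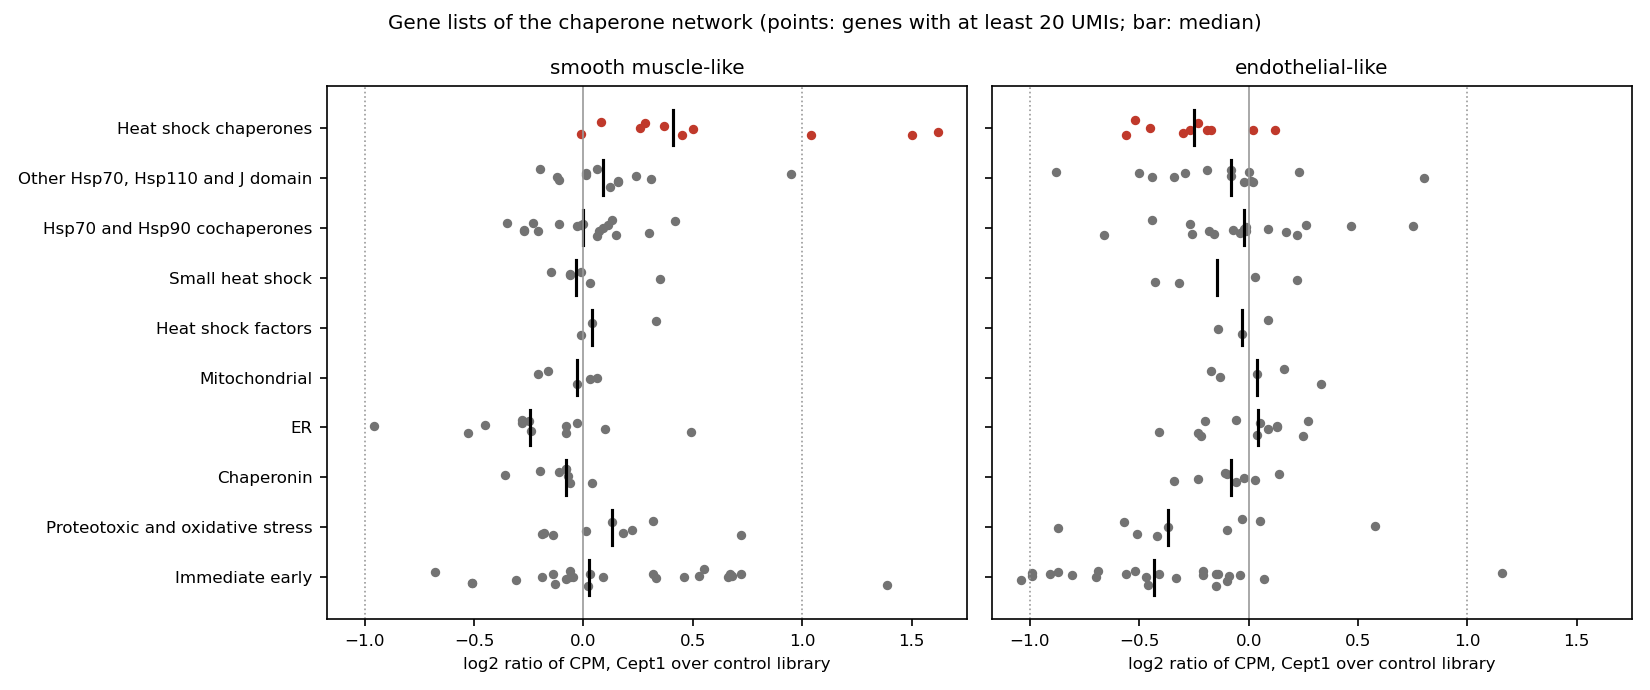
Log2 ratio of CPM (Cept1 library over control library) for each gene with at least 20 UMIs in 10 lists in smooth muscle-like and endothelial-like cells, with the 10 chaperone genes in red, a black bar at each median and dotted lines at 2-fold. In smooth muscle-like cells the medians of the other 9 lists lie between -0.24 and 0.13, and in endothelial-like cells the immediate early list has its median at -0.43.

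In endothelial-like cells the immediate early list was lower in the Cept1 library along with the chaperones. Of its 24 genes 22 had ratios below 0, with a median of -0.43 and a summed level of 6103 CPM in the Cept1 library and 7961 CPM in the control library. Fos was at -0.99, Jun at -0.41 and Klf2 at -0.21. Socs3 (-1.04) and Myc (1.16) were past 2-fold in opposite directions, where 2.28% of all genes were at least 2-fold higher and 2.36% lower. Of the proteotoxic stress genes, 7 of 9 were below 0, with Atf3, counted in the immediate early list too, at -0.87 and Ubb at -0.37. Endoplasmic reticulum genes had a median of 0.04, with Hsp90b1 at 0.25, Calr at -0.06, Pdia3 at -0.22, Hspa5 at -0.20 and Serpinh1 at -0.41, and summed to 2299 CPM in the Cept1 library and 2354 CPM in the control library. The opposite was seen for immediate early genes in lymphocytes, with ratios above 0 for 23 of 24 in B-like cells (median 0.83) and 19 of 24 in T or NK-like cells (median 0.57), while the medians of the chaperone genes with enough UMIs there were -0.04 and 0.28. It was also seen in neutrophil-like cells, for 20 of 21 genes (median 1.0), with a median of 0.22 over 5 chaperone genes.

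The genes whose levels over the 14 combinations of class and library were most like the sum of Hspa1a and Hspa1b were Gm15270 (Pearson r 0.964), Cdr2 (0.946), Tmem33 (0.945), Nacc2 (0.943) and Acadm (0.923), out of 13623 genes with at least 200 UMIs, on log2(CPM + 1). The 14 values share 2 libraries, and r is a description. In smooth muscle-like cells the ratios of these 5 were small, between -0.35 for Nacc2 and 0.30 for Cdr2, so the likeness lay in the order of classes. Among the other chaperone genes, Bag3 (0.833) and Hspa8 (0.83) were the most like the pair and ranked 177 and 192, while Dnaja1 (0.396) ranked 5744.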

How the data were processed

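Whole aorta was measured in 1 library per condition by 10x Genomics 3′ v3 chemistry, per the labels' protocols. The authors deposited UMI counts without normalization, which Cell Ranger 7.2.0 made, per the file headers, and the submitters' processing notes name Seurat and mm10. The sources used here do not give the annotation, intron counting or use of strand. Cells with 500 or more genes and 10% or less mitochondrial UMIs were kept and given a class when at least 3 of its markers had at least 2 UMIs each and no other class reached more than 0.5 of that share of its own markers. The gate was set from marker UMIs alone and drops cells with markers of a second class. No doublet caller was used, but as an alternative Scrublet (scanpy 1.11.5, expected rate 8%) called 533 cells (4.77%) in the Cept1 library and, at the threshold of that library, 183 (2.1%) in the control library, where its own threshold called 0.

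UMIs were summed per class. Intervals are exact Clopper-Pearson for ratios and shares and exact Poisson for CPM (scipy 1.17.1), and p-values were not computed, since cells are not replicates. The calculation was tested on simulated data. A gene was called past 2-fold with at least 20 UMIs over both libraries. Alternatives were other filters, gates, minimum counts and weights, joint clustering (leidenalg 0.10.2) and TMM scaling (edgeR 4.0.16, R 4.3.3). Other minimum counts change which genes are called and cannot move a ratio. TMM scaling shifts all ratios of a class by the same amount. Positions are from GENCODE vM21 and sequences from RefSeq, GRCm38.p6. Members and lists were chosen with earlier results of these data known. Named were the 10 genes in every class, list genes past 2-fold in smooth muscle-like or endothelial-like cells, otherwise up to 4 per list with the most UMIs, and the 5 genes most like the pair. A gene that this rule would name is not reported here.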

Additional observations from a re-analysis of the deposited data

How the results depend on the processing

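In smooth muscle-like cells the ratio of Hspa1a lay between 1.28 and 1.73 over 11 alternatives. That of Hspa1b lay between 1.54 and 1.80 and that of their sum between 1.41 and 1.73, all past 2-fold. The alternatives that change only the minimum count left these ratios as they were by construction. Hspa1a was at 1.73 under a stricter filter of 1000 or more genes and 5% or less mitochondrial UMIs, 1.65 with a stricter marker gate, 1.35 with cells weighted equally and 1.28 with cells of 5000 to 15000 UMIs, an alternative chosen after seeing the data. Hspa1b was at 1.73 under it and 1.80 with the stricter gate. The count of 3 members past 2-fold there moved by no more than 1.5 times. In B-like cells the count of 1 became 0 with the stricter filter, joint clustering, thinning or at least 100 UMIs, and 2 with the stricter gate, where Hspa1a was at -1.26; with joint clustering it was at -0.83. In T or NK-like cells the count of 3 became 0 with at least 100 UMIs, and Hspb1 was at -0.12 with joint clustering. In neutrophil-like cells the count of 0 became 3 with joint clustering, 1 with thinning and 2 with no UMI minimum. The cause was not tested. No paired analysis was possible because each condition has 1 library. Low counts of the members limit the lymphocyte and neutrophil classes, where several members had under 20 UMIs in a library.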
